A study of Homo sapiens with 6 samples.

Results

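CREB5, CPVL, CHN2, PRR15 and SCRN1 follow each other in this order on the short arm of human chromosome 7, between positions 28299321 and 29990289. They are 5 of the 27980 gene symbols counted, and they were chosen by their measured levels in the comparison described here, so their differences are given as a description with no test. The RNA came from RKO, a cell line of a poorly differentiated human colon carcinoma, in 3 libraries per group. The shTRIP6 cells were stably infected with a lentivirus for a short hairpin that targets TRIP6, and the shControl cells with one for a scrambled hairpin (their genotype label reads WT). Puromycin (5 µg/ml) was applied to infected cells after 36 h and kept on for 2 to 3 weeks. The labels do not say whether the populations were clones or derived from one stock, so an effect of the hairpin and a difference between cell populations cannot be told apart.

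Depth was 31096598 to 32089298 counts in shTRIP6 libraries and 29605764 to 30949334 in shControl libraries. TRIP6, a LIM-domain adaptor of focal adhesions and the targeted gene, averaged 19.5 ± 0.203 CPM (counts scaled to library size) in shTRIP6 and 80.3 ± 6.27 CPM in shControl (SD, n = 3 each), a log2 fold change of -2.04 ± 0.07 (SE, edgeR adjusted p = 1.25e-14). It lies on the long arm of the same chromosome, 70.9 Mb beyond SCRN1. Of 15473 genes with enough counts to be tested, 4487 were called higher and 4820 lower in shTRIP6 (edgeR adjusted p under 0.05). Of 5 epithelial markers (EPCAM, CDH1, KRT8, KRT18 and KRT19), 3 averaged 1 CPM or more in each group. The sum of the 5 was 2532 to 2730 CPM in shTRIP6 and 2515 to 2802 CPM in shControl. EPCAM had no count in any library, and none of 6 colonic differentiation markers reached a mean of 1 CPM in either group. The sum of 5 leukocyte markers (PTPRC, CD3E, CD68, CD14 and ITGAM) was 236 to 245 CPM in shTRIP6 and 187 to 236 CPM in shControl. Only 2 of the 5 in shTRIP6 and 1 in shControl averaged 1 CPM or more, so the shControl sum came almost wholly from 1 gene. The defining markers PTPRC and CD3E had no count in shTRIP6, whereas each of the 5 had counts in shControl. The sum of 4 endothelial markers was 0.224 to 0.282 CPM in shTRIP6 and 1.78 to 2.28 CPM in shControl, with PECAM1 at 0 in shTRIP6 and KDR at 0 in shControl. For 5 fibroblast markers the sum was 16.72 to 18.26 CPM in shTRIP6 and 14.98 to 17.84 CPM in shControl. Of these, 3 averaged 1 CPM or more in shTRIP6 and all 5 in shControl, with DCN at 0 in shTRIP6. The part of these markers in the results was not tested. Titles call the replicates biological (biol rep) but do not say whether they came from separate cultures. The p-values thus measure only the spread between these libraries. In bulk RNA, fewer cells expressing a gene and less RNA per cell cannot be told apart.

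The 5 genes encode unrelated proteins. CREB5 is a basic leucine zipper factor of the ATF2 subfamily that binds cAMP response elements, alone or with JUN. CPVL is a carboxypeptidase of the serine class, known from macrophages. CHN2 encodes beta-chimaerin, which switches off the GTPase RAC and is recruited to membranes by diacylglycerol. PRR15 is a small proline-rich protein, and SCRN1, secernin-1, was first described in mast cell exocytosis. Genes that lie next to each other can share chromatin state and regulatory elements without any kinship of their products.

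CREB5 (ENSG00000146592.16) spans 28299321 to 28825894 on the plus strand, and CPVL (ENSG00000106066.14) spans 28995231 to 29195451 on the minus strand. CHN2 (ENSG00000106069.22) spans 29146569 to 29514328 on the plus strand, so that it and CPVL overlap by 48.9 kb, although no exon of either overlaps an exon of another gene of the table. PRR15 (ENSG00000176532.3) spans 29563811 to 29567295 on the plus strand and SCRN1 (ENSG00000136193.16) spans 29920103 to 29990289 on the minus strand. All are protein-coding genes and positions are those of GENCODE 29 (GRCh38). Of the counted symbols that could be placed on the genome, TRIL, MIR550A3, WIPF3 and the pseudogenes ZNRF2P2 and DPY19L2P3 lie between them.

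Sequence at a transcript start of each gene is shown because neighbours that move together can share promoter features. RefSeq (GRCh38.p14) lists 15 windows for the 5 genes, each from 250 bases before to 50 after a transcript start, and the most upstream window of each gene is printed 5′ to 3′ on the gene's own strand. They lie at chr7:28412268-28412567 (plus), chr7:29195218-29195517 (minus), chr7:29146341-29146640 (plus), chr7:29563585-29563884 (plus) and chr7:29989752-29990051 (minus). The CREB5 window lies inside the gene as GENCODE 29 places it, downstream of the gene start given above. Capitals mark CG dinucleotides, the sites of DNA methylation.
CREB5: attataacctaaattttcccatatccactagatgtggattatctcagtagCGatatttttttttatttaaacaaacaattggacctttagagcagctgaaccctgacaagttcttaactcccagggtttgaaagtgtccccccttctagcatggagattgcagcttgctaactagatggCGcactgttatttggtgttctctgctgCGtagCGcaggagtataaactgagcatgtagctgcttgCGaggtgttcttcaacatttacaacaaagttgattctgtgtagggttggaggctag
CPVL: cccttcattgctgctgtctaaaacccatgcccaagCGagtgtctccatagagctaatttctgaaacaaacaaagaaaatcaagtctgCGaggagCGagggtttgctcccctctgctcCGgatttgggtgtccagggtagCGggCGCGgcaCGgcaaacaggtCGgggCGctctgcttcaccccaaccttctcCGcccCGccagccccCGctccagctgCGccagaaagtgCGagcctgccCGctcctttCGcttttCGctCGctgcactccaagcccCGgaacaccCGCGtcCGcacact
CHN2: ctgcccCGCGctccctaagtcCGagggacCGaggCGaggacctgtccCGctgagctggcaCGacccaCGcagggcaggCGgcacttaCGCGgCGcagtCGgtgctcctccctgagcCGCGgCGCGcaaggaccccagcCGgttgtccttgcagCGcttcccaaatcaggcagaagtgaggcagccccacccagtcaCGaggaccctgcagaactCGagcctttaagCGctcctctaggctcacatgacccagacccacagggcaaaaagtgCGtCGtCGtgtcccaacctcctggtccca
PRR15: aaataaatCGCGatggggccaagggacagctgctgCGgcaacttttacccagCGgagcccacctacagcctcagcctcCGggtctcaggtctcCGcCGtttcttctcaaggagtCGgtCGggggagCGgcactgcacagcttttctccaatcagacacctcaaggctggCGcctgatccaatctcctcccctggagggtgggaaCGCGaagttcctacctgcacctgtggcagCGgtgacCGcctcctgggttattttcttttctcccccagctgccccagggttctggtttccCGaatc
SCRN1: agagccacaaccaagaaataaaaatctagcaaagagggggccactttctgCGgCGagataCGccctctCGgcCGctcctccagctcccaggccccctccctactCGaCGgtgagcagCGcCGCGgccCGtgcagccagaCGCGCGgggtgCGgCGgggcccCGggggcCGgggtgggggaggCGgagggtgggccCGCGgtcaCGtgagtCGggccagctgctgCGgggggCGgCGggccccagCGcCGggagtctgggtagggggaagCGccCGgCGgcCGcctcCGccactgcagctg

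The windows differed widely in CG content. The CREB5 window held 5 CG dinucleotides, with a ratio of observed to expected CG of 0.385. The windows of CPVL, CHN2 and PRR15 held 23, 25 and 16, with ratios of 0.855, 0.772 and 0.60, and that of SCRN1 held 33, with a ratio of 0.802. The median ratio over 34943 RefSeq windows was 0.577. The printed windows of CPVL, CHN2, PRR15 and SCRN1 were above this median, but 2 of 3 CPVL windows, 4 of 6 CHN2 windows and 1 of 2 PRR15 windows were below it, as were all 3 CREB5 windows (0.271 to 0.385). A further CPVL start lies opposite the printed CHN2 start, and the windows of the pair share 153 bases on opposite strands.

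Motifs were searched on both strands in all 15 windows. The cAMP response element TGACGTCA was in 0 windows, against 1.84% of all RefSeq windows. The AP-1 motif TGANTCA was in 2 and the TEAD motif GGAATG in the same 2, a downstream start of CREB5 and one of CHN2, against 7.72% and 14% of all windows. TATAAA was in 2 windows (11.6% of all), GGGCGG in 3 (44.9% of all) and CACGTG in 1, that of SCRN1 (7.23% of all). A match is a description of letters only.

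The first 4 genes of the run were close to absent in shTRIP6, and SCRN1 was higher there. PRR15 had 4, 0 and 8 counts in the shTRIP6 libraries, against 367, 356 and 357 counts in shControl. That is 0.128 ± 0.129 CPM in shTRIP6 and 11.8 ± 0.492 CPM in shControl (SD, n = 3 each), a log2 fold change of -6.49 ± 0.32 (SE). All 3 shTRIP6 libraries lay far below all 3 shControl libraries, and the shControl libraries were close to each other.

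CPVL had 11, 7 and 1 counts in shTRIP6, against 385, 424 and 423 counts in shControl. Its mean was 0.20 ± 0.158 CPM in shTRIP6 and 13.4 ± 0.409 CPM in shControl, a log2 fold change of -6.03 ± 0.28. CPVL was as even between the shControl libraries as PRR15, and the groups did not overlap.

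CHN2 had 2, 3 and 0 counts in shTRIP6, against 78, 47 and 90 counts in shControl. Its mean was 0.0529 ± 0.0487 CPM in shTRIP6 and 2.35 ± 0.740 CPM in shControl, a log2 fold change of -5.36 ± 0.57. The groups did not overlap, and shControl replicate 2 was the lowest of its group.

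CREB5 had 0, 7 and 6 counts in shTRIP6, against 56, 35 and 13 counts in shControl. Its mean was 0.139 ± 0.121 CPM in shTRIP6 and 1.14 ± 0.731 CPM in shControl, a log2 fold change of -3.01 ± 0.68. The groups did not overlap, but the lowest shControl library, at 0.420 CPM, was near the highest shTRIP6 library, at 0.224 CPM.

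SCRN1 had 17541, 17335 and 17147 counts in shTRIP6, against 11487, 11440 and 11783 counts in shControl. Its mean was 552 ± 2.02 CPM in shTRIP6 and 378 ± 9.75 CPM in shControl, a log2 fold change of 0.55 ± 0.04. Every shTRIP6 library was above every shControl library, and SCRN1 was by far the most abundant gene of the run.

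In all, 4 members lay below and 1 above with no overlap between the groups, beside 33.5% and 31.8% of all tested genes. All 5 members passed the filter on low counts, and edgeR called 4 lower and 1 higher, beside 31.2% and 29% of all tested genes. Because the genes were chosen on this comparison, nothing is read from these counts. The falls rested on few counts in shTRIP6, and leaving out 1 library moved each by over 1.5 times without turning it. Without shTRIP6 replicate 1 the log2 fold change was -2.42 for CREB5 and -6.66 for CPVL. Without shTRIP6 replicate 2 it was -6.03 for CHN2, and without shTRIP6 replicate 3 it was -7.44 for PRR15, which stood at -7.11 in limma-voom.

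**Figure D1:**
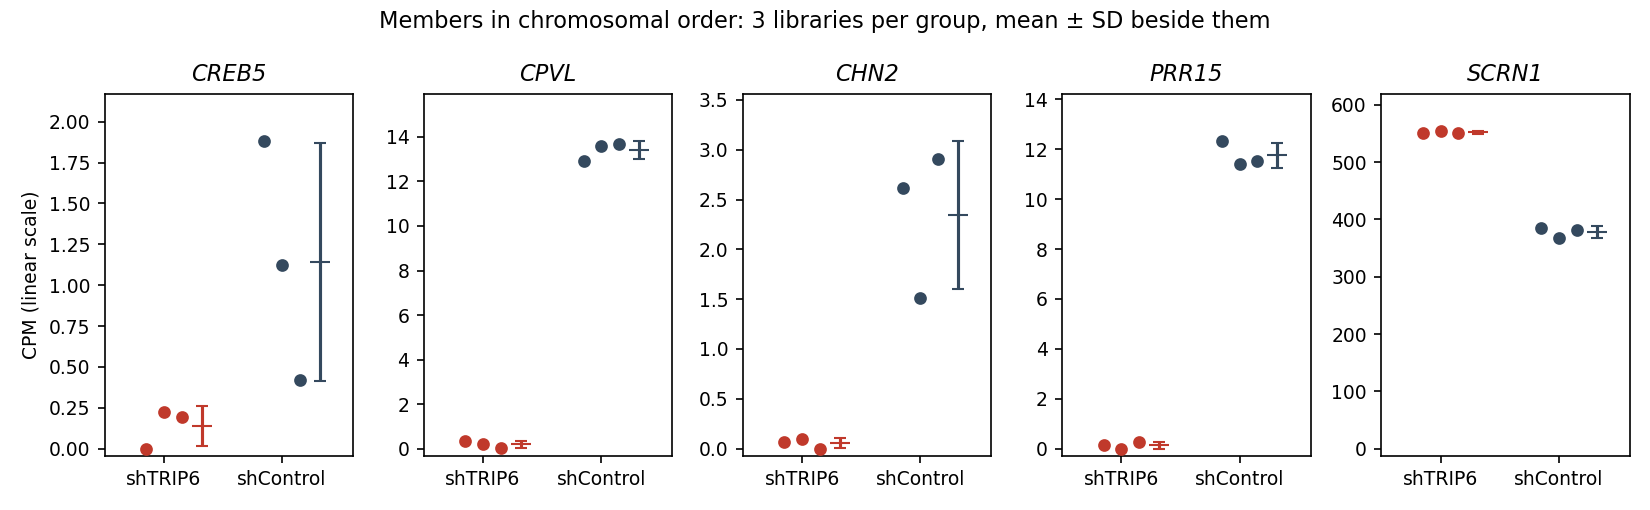
Level of each member in CPM on a linear axis of its own, with the 3 shTRIP6 libraries left of the 3 shControl libraries and the mean ± SD beside each group. The shTRIP6 points of CREB5, CPVL, CHN2 and PRR15 sit at or near 0, and those of SCRN1 sit above the shControl points.

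Levels between genes are compared as mean CPM per kilobase of merged exons. In shControl these were 62.5 for SCRN1, 5.94 for PRR15, 4.01 for CPVL, 0.267 for CHN2 and 0.0978 for CREB5. In shTRIP6 they were 91.3 for SCRN1, 0.0644 for PRR15, 0.0600 for CPVL, 0.0119 for CREB5 and 0.00601 for CHN2. In shControl no neighbours in this order overlapped between libraries. In shTRIP6 the 4 low genes each overlapped the next in the order, with 5 to 19 counts per gene summed over the group, and only SCRN1 stood apart. The floor of 3 counts was worth 0.0941 to 0.0964 CPM in a shTRIP6 library, and the shTRIP6 means of the 4 low genes, 0.0529 to 0.20 CPM, were of that order. Intervals and floors cover counting error only.

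The spread between shControl libraries separated the 4 low genes into pairs. The chi-square per degree of freedom between the 3 shControl libraries was 14.3 for CREB5 and 7.25 for CHN2, against a median of 2.66 and a 90th percentile of 9.48 over 1574 tested genes with 100 to 300 summed counts. For CPVL and PRR15 it was 0.377 and 0.623, against a median of 3.42 over 1122 genes with 1000 to 1500 summed counts. The level of CREB5 thus varied between control libraries more than that of most genes of like depth. CPVL and PRR15 varied there no more than counting alone gives. Between shTRIP6 libraries the same measure was 3.37 for CREB5, 3.88 for CPVL, 1.40 for CHN2 and 4.05 for PRR15. These values rest on only 13, 19, 5 and 12 summed counts and have no background of like depth. They cannot be set against those of shControl. Intervals for counting error leave this spread out.

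The level left in shTRIP6 did not grade steadily along the chromosome. From pooled counts, with exact 95% intervals for counting error, 12.2% of the shControl level was left for CREB5 (6.28% to 21.8%). For CPVL it was 1.5% (0.902% to 2.36%), for CHN2 2.27% (0.728% to 5.37%) and for PRR15 1.08% (0.558% to 1.90%). For SCRN1 the shTRIP6 level was 146% of shControl (144% to 148%). The intervals of CPVL, CHN2 and PRR15 overlapped each other, so no order among them was detectable at this depth. That of CREB5 lay above all 3, but its shTRIP6 level, at 0.139 CPM, lay within the range of theirs, and its shControl level was the lowest of the 4.

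**Figure D2:**
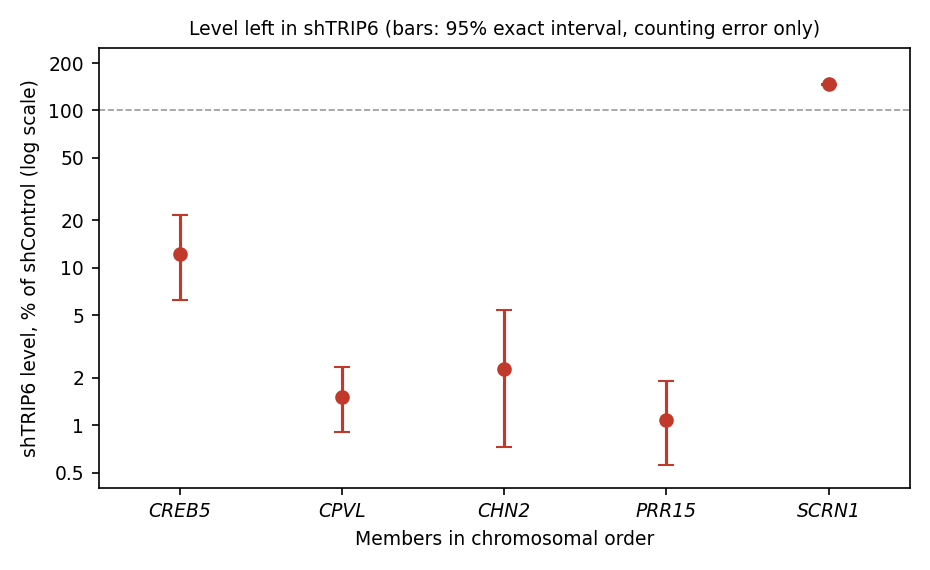
Level in shTRIP6 as a percentage of shControl on a log axis for the 5 members in chromosomal order, with 95% exact intervals for counting error and a dashed line at 100%. CPVL, CHN2 and PRR15 stand together at 1.08% to 2.27%, CREB5 at 12.2% and SCRN1 at 146%.

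The tested genes next to the low stretch were not called lower on either side. The stretch from the start of CREB5 to the end of PRR15 measured 1268 kb. On the near side, JAZF1, a zinc finger cofactor gene that ends 119 kb before CREB5, had 457, 529 and 447 counts in shTRIP6 against 427, 402 and 497 counts in shControl. Its log2 fold change was 0.07 ± 0.11 (edgeR adjusted p = 0.581), and the groups overlapped. The next genes away from the run fell slightly. TAX1BP1, an autophagy receptor gene with exons overlapping those of JAZF1, averaged 90.0 ± 4.15 CPM in shTRIP6 and 111 ± 8.55 CPM in shControl (log2 fold change -0.30 ± 0.06, edgeR adjusted p = 0.000258). HIBADH, an enzyme of valine breakdown, had a log2 fold change of -0.25 ± 0.07 (edgeR adjusted p = 0.00400).

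On the far side, ZNRF2P2 begins 31.5 kb after the end of PRR15 and had 66, 62 and 76 counts in shTRIP6 against 30, 26 and 27 counts in shControl. It rose, with a log2 fold change of 1.26 ± 0.30 (edgeR adjusted p = 0.00127), and all 3 shTRIP6 libraries were above all 3 shControl libraries. DPY19L2P3, whose exons overlap those of ZNRF2P2, had a log2 fold change of 0.72 ± 0.33 (edgeR adjusted p = 0.0651). Without shControl replicate 1 this was called, at 0.93 (edgeR adjusted p = 0.0340), and over all alternatives the adjusted p spanned 0.0340 to 0.201. Both are pseudogenes, and whether reads from related sequences elsewhere were counted for them was not tested, so the source of their reads is uncertain. The next tested gene, SCRN1, begins 353 kb after PRR15. WIPF3, a partner gene of WASP proteins that begins after both, had too few counts for the test, with 2, 7 and 15 counts in shTRIP6 and 0 in every shControl library. With a floor of 3 counts for shControl as a group, it was at least 7.80-fold higher in shTRIP6. TRIL, which lies between CREB5 and CPVL, and MIR550A3 had no count in any library.

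Beyond SCRN1, FKBP14, a peptidyl-prolyl isomerase gene of the endoplasmic reticulum, begins 20.3 kb away. It averaged 29.7 ± 2.59 CPM in shTRIP6 cells and 58.6 ± 5.24 CPM in shControl cells, a fall of log2 -0.98 ± 0.08 (edgeR adjusted p = 4.51e-09). PLEKHA8, a glycolipid transfer gene, had a log2 fold change of -0.15 ± 0.08 (edgeR adjusted p = 0.130), and MTURN fell by 0.39 ± 0.10 (edgeR adjusted p = 0.00193). The 3 tested genes nearest to SCRN1 on its far side thus fell or did not pass the test.

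**Figure D3:**
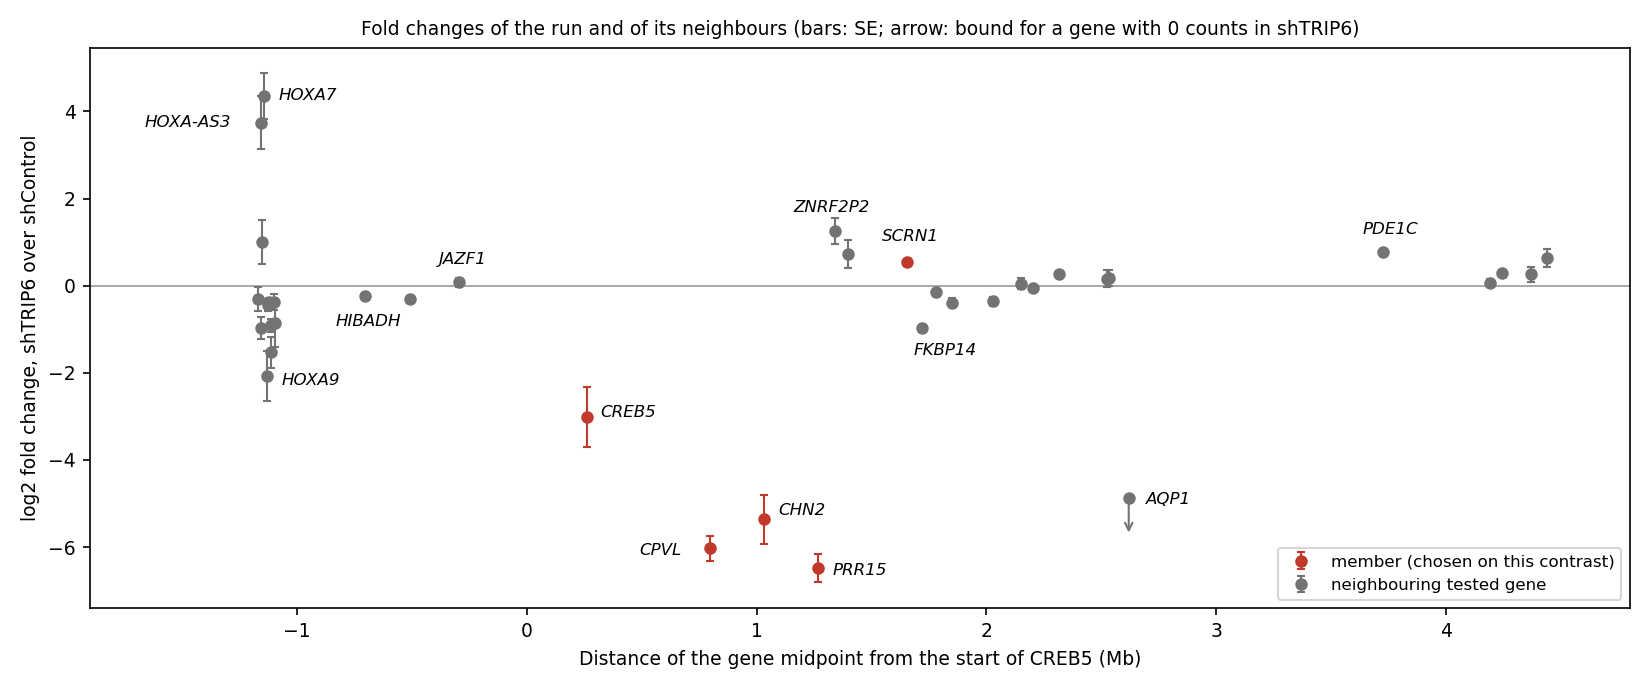
Log2 fold change of shTRIP6 over shControl with its SE for the 5 members and 32 neighbouring tested genes, against the distance of each gene's midpoint from the start of CREB5 in Mb. The 4 low members stand at -3.01 to -6.49 between JAZF1 at 0.07 and ZNRF2P2 at 1.26, and the arrow marks AQP1, which had no count in shTRIP6 and is drawn at its bound.

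Over 15 tested genes on each side of the run and the 2 between its members, 12 of 32 neighbours were called lower (37.5%, beside 31.2% of all tested genes) and 7 higher (21.9%, beside 29%). Their median log2 fold change was -0.10, with AQP1 at its bound or not, and that of all tested genes was 0.00 (-0.00397). Of 12 neighbours in the HOXA cluster, 6 were called lower (50%) and 2 higher (16.7%). Outside it, 6 of 20 were called lower (30%) and 5 higher (25%), with a median log2 fold change of 0.07. Neighbours with 2-fold or larger calls were ZNRF2P2, AQP1 and 4 genes of the HOXA cluster, over 1 Mb before CREB5. AQP1, a water channel gene that begins 921 kb after SCRN1, had no count in shTRIP6 against 13, 34 and 38 counts in shControl, and with a floor of 3 counts for the group it was at least 29.1-fold lower (edgeR adjusted p = 1.33e-05). HOXA7 and HOXA-AS3, whose exons overlap, rose to 1.64 ± 0.402 and 1.36 ± 0.132 CPM in shTRIP6, against 0.0760 ± 0.0176 and 0.0964 ± 0.116 CPM in shControl. HOXA9 and HOXA11-AS fell, with log2 fold changes of -2.08 ± 0.57 and -1.53 ± 0.36 (edgeR adjusted p = 0.00411 and 0.00112). HOXA9 had only 3, 10 and 3 counts in shTRIP6 against 23, 29 and 15 counts in shControl. Its exons overlap those of HOXA10-AS and MIR196B, and those of HOXA11-AS overlap HOXA11. Without shControl replicate 2 the log2 fold change of HOXA-AS3 was 5.20 in place of 3.74, and without shTRIP6 replicate 2 that of HOXA9 was -2.88. The median log2 fold change over 254 tested genes before the 60 Mb point of chromosome 7 was 0.03, and over 498 beyond it 0.07, both near the median of all tested genes.

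Relatives and partners of the members are described by list, beside the 29% of all tested genes called higher and the 31.2% called lower. Of 18 tested CREB and ATF factors, 6 rose (33.3%) and 8 fell (44.4%), with a median log2 fold change of -0.04. CREB3L3, a membrane-bound factor known from liver and intestine, averaged 0.372 ± 0.131 CPM in shTRIP6 cells and 16.6 ± 3.15 CPM in shControl cells (log2 fold change -5.47 ± 0.23, edgeR adjusted p = 2.12e-13). The stress-induced repressor gene ATF3 fell by 1.03, while BATF2 and BATF3, which encode dimer partners of JUN, rose by 1.01 each. CREB1, the founding member, had a log2 fold change of 0.16 (edgeR adjusted p = 0.0380). The closest relatives of CREB5 moved apart: ATF2 rose, at 54.5 CPM in shTRIP6 and 39.1 CPM in shControl (edgeR adjusted p = 3.11e-06), and ATF7 fell, at 35.1 CPM in shTRIP6 and 50.3 CPM in shControl (edgeR adjusted p = 2.22e-06).

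Of the 5 CREB co-activator genes, 4 fell (80%, beside 31.2% of all tested genes) and 0 rose (beside 29%), with a median log2 fold change of -1.09. The acetyltransferase gene EP300, whose exons hold MIR1281, averaged 44.1 ± 1.47 CPM in shTRIP6 cells and 105 ± 10.8 CPM in shControl cells (log2 fold change -1.25 ± 0.07, edgeR adjusted p = 1.33e-11). CRTC3, which couples CREB to cAMP signals and has exons overlapping CRTC3-AS1, averaged 25 ± 2.21 CPM in shTRIP6 cells and 58.4 ± 1.01 CPM in shControl cells (log2 fold change -1.23 ± 0.07, edgeR adjusted p = 4.36e-11). CREBBP and CRTC1 also fell, by 0.95 and 1.09, and CRTC2 had a log2 fold change of -0.05 (edgeR adjusted p = 0.618).

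Of 13 tested RAC GTPases and RAC-directed GTPase-activating genes, 4 rose (30.8%, beside 29% of all tested genes) and 1 fell (7.69%, beside 31.2%), with a median log2 fold change of 0.11. CHN1, the closest relative of CHN2, had 11.3 ± 0.548 CPM in shTRIP6 and 10.2 ± 0.434 CPM in shControl (log2 fold change 0.16, edgeR adjusted p = 0.250). RAC2, the RAC of blood cells, averaged 128 ± 5.45 CPM in shTRIP6 cells and 59.9 ± 1.71 CPM in shControl cells (log2 fold change 1.09 ± 0.05, edgeR adjusted p = 2.87e-12). ARHGAP22 rose by 0.71 and SRGAP1 fell by 0.34. Of 12 tested effectors listed for diacylglycerol, the lipid that recruits chimaerins, 4 rose (33.3%, beside 29% of all tested genes) and 3 fell (25%, beside 31.2%), with a median log2 fold change of 0.20. The protein kinase C genes PRKCE and PRKCH rose by 0.90 and 0.61. RASGRP1, a RAS activator, fell by 3.09 and UNC13D, a granule secretion gene whose protein lacks the lipid-binding C1 domain of its relatives, fell by 3.44.

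CTSA, a lysosomal carboxypeptidase related to CPVL whose exons overlap those of NEURL2 and PLTP, fell by 0.24 (edgeR adjusted p = 0.000502), and the other, SCPEP1, had a log2 fold change of -0.09 (edgeR adjusted p = 0.266). SCRN2, with exons overlapping LRRC46, rose to 37.4 ± 1.18 CPM in shTRIP6, against 25.9 ± 2.72 CPM in shControl, a log2 fold change of 0.53 ± 0.08 (edgeR adjusted p = 1.88e-05). SCRN3 had a log2 fold change of 0.12 (edgeR adjusted p = 0.213). PRR15L, the relative of PRR15, had 1, 8 and 4 counts in shTRIP6 and 0 in every shControl library. With the same group floor it was at least 4.22-fold higher in shTRIP6.

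**Figure D4:**
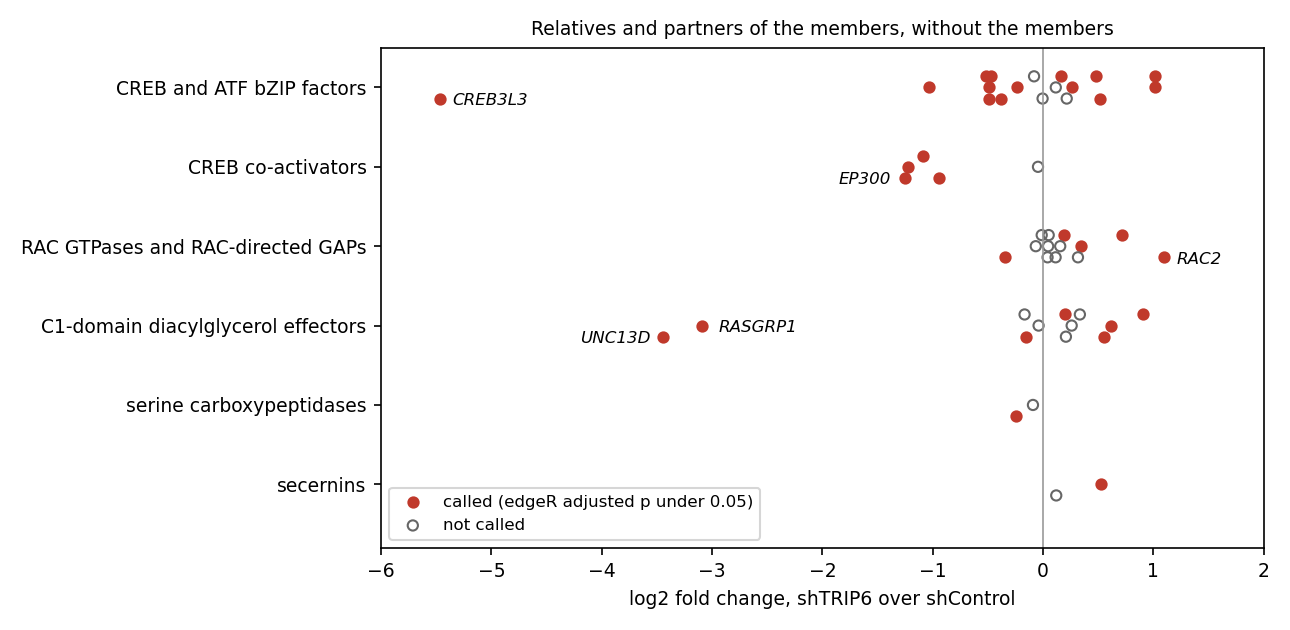
Log2 fold change of shTRIP6 over shControl for each tested gene of 6 lists of relatives and partners, with filled points for genes called by edgeR and open points for the others. The co-activator genes other than CRTC2 lie near -1, CREB3L3 lies at -5.47, the RAC and diacylglycerol lists and the other CREB and ATF factors lie on both sides of 0, both carboxypeptidases lie below 0 and both secernins above it.

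Among tested genes averaging at least 1 CPM, 13471 for most members, those with a profile over the 6 libraries most like each member were found by the root mean square difference of log2 CPM centred over the libraries. For CPVL they were HOTAIRM1, a noncoding RNA gene of the HOXA cluster on the same chromosome (0.25), and EDIL3 (0.27). For PRR15 they were FZD10-DT (0.19) and ALPP (0.26), for CHN2 ZNF100 (0.07) and MYO5B (0.28), and for SCRN1 ZNRF1 (0.01) and CPSF1 (0.01). For CREB5 the nearest were BASP1-AS1 (0.58) and SH3D21 (0.61), which were less like it than the nearest genes of the other members were like theirs. HOTAIRM1 starts at position 27095647, farther from CREB5 than the 15 tested neighbours on that side, so it is not among them. It had 14, 5 and 2 counts in shTRIP6 against 399, 442 and 516 counts in shControl. Its log2 fold change was -6.03 ± 0.28, so a fall as deep as that of CPVL was also seen on this arm outside the run. The profiles share the same 6 libraries and the same split into groups.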

How the data were processed

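RNA-seq of 6 RKO libraries was analysed, 3 shTRIP6 and 3 shControl, grouped by their titles. The authors deposited raw read counts per gene symbol, not normalized. Per the submitters' processing notes TopHat2, edgeR, limma and the build hg38 were used, with roles, versions, counting tool, annotation and strand setting not given in the sources used here. Members, lists and neighbour rules were chosen with earlier results of these data known.

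After TMM scaling and filterByExpr, edgeR 4.0.16 (R 4.3.3) fitted group alone by its quasi-likelihood test, with Benjamini-Hochberg adjustment over 15473 genes. CPM used TMM-scaled library sizes, of which 1 count was worth 0.0314 to 0.0336 CPM. The SE is the log2 fold change divided by the square root of F. The fit was tested on simulated data. Between replicates the chi-square per degree of freedom was 3.05 to 4.59 in shTRIP6 and 4.81 to 11.7 in shControl, against 118 to 135 between the groups. Replicates thus differed by more than counting error alone gives. Whether any were repeat preparations of the same culture cannot be told from these values.

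GENCODE 29 (GRCh38) placed 25810 of 27980 symbols. Intervals of a ratio are exact binomial. Genes named are the members, the nearest 3 tested genes on each side and those between, neighbours called at 2-fold, up to 2 rises and 2 falls per list among those called at 1 CPM or above on average, and 2 similar genes per member. The lists leave out the members. CREB1, ATF2, ATF7, CREBBP, CRTC1, CRTC2, CHN1, SCPEP1, SCRN3, PRR15L, WIPF3, TRIL, MIR550A3, LINC01176 and ADCYAP1R1 were named after their values were seen. Alternatives tried were other scalings (RLE, upper-quartile, library totals alone), no filter, 1 CPM in 3 libraries, DESeq2 1.42.0, limma-voom (limma 3.58.1), the replicate number as a block and leaving out each library.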

Additional observations from a re-analysis of the deposited data

How the results depend on the processing

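Every member kept its direction under each alternative that could be fitted, and CREB5 was not tested under the filter of 1 CPM in 3 libraries. Leaving out a library gave log2 fold changes of -6.03 to -4.81 for CHN2, -7.44 to -5.91 for PRR15, -3.52 to -2.42 for CREB5 and -6.66 to -5.53 for CPVL. SCRN1 moved to 0.59 under upper-quartile scaling, which raised the median of all tested genes to 0.04, and was 0.53 to 0.56 without a library. Without a library JAZF1 ranged over -0.00260 to 0.16, so its sign is not set. The neighbours called lower numbered 10 to 13 and those called higher 6 to 8 over the alternatives. DPY19L2P3 passed the threshold in 3 alternatives.

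Deviations of libraries with the same replicate number had correlations of -0.0448 to -0.0234, and those with different numbers -0.00661 to 0.0347. No positive correlation by number was seen, but such values cannot settle whether the samples were paired. With the replicate number as a block, 12 neighbours were lower and 7 higher, as without it, and the log2 fold change of CREB5 was -2.87. The block gave 4377 genes higher and 4702 lower. Depth limits the 4 low genes most, since 5 to 19 counts over 3 shTRIP6 libraries set their levels.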

Other observations

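Among genes of the span with too few counts for the test, LINC01176, a noncoding RNA gene after SCRN1, had 0, 1 and 0 counts in shTRIP6 against 21, 7 and 11 counts in shControl. ADCYAP1R1, the receptor gene for the neuropeptide PACAP, had 10, 1 and 1 counts in shTRIP6 and 0 in every shControl library. Of the 16 untested genes in the span, 6 had no count in any library.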
